A study of Homo sapiens with 9 samples.

Results

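ATF4 and 9 genes that work around it in the integrated stress response were followed in HCT-15 cells, a line established from a human colorectal adenocarcinoma. The 10 genes were taken from a list of regulators and feedback genes of this response: ATF4, DDIT3 (which encodes CHOP), ATF3, ATF5, TRIB3, CEBPB, CEBPG, NUPR1, CHAC1 and PPP1R15A (which encodes GADD34). All 10 were found among the 36018 genes counted, and all 10 were among the 17902 genes with enough counts to be tested. The 9 RNA-seq libraries form 3 groups of 3. The control group was HCT-15 with no treatment. The CoCl2-tolerant group came from cells grown in rising doses of cobalt chloride, a salt that mimics low oxygen, until they tolerated it. The low-glucose-tolerant group was derived by the same stepwise procedure under low glucose. All groups carry the genotype label WT and were kept in RPMI1640 medium with fetal bovine serum. A line tolerant to brefeldin A, which the labels also mention, was not analysed here.

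In the integrated stress response, kinases that sense different stresses phosphorylate the translation factor eIF2. This slows most protein synthesis but favours translation of a few mRNAs, ATF4 and ATF5 among them, through short upstream reading frames. ATF4 then binds gene promoters, often as a dimer with a C/EBP protein, and raises amino acid supply genes, CHOP and the feedback genes TRIB3, CHAC1 and PPP1R15A; prolonged CHOP activity is linked to cell death. RNA levels measure neither eIF2 phosphorylation nor the amount of ATF4 protein.

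Each tolerant group is a single derived line, so tolerance cannot be told apart from any other change that arose while that line was grown. The presence of CoCl2 or low glucose when RNA was taken is not stated here. A lasting trait of a line and a response to ongoing exposure therefore cannot be told apart. Whether replicate libraries stem from separate cultures is not stated in the labels; every p-value here therefore reflects the scatter of these 9 libraries alone, and that scatter may be technical. Depth lay between 25178615 and 32674687 counts a library. Levels are given as CPM, each gene's counts scaled to a common library size of 1e+06. Mitochondrial genes took 8.08% to 9.80% of counts in control libraries, 4.64% to 6.67% after CoCl2 and 4.74% to 5.20% after low glucose. Of 12 intestinal epithelial marker genes found in the files, 10 were under 1 CPM in control and all 12 in each tolerant group; CDX1 and CDX2, which define intestinal epithelium, were at 0 in all control and CoCl2-tolerant libraries. The labelled colorectal identity was therefore not visible in these markers. The summed level of 8 general epithelial markers lay at 1427 to 1463 CPM in control libraries, at 1397 to 1694 CPM with CoCl2 tolerance and at 2520 to 3433 CPM with low-glucose tolerance, and was mostly KRT8, KRT19 and KRT18. Other members of that list took other courses: ELF3 averaged 56.2, 13.0 and 6.60 CPM, CDH1 17.8, 1.41 and 8.15 CPM, and EPCAM 54.7, 21.8 and 55.8 CPM in the 3 groups. The summed level of 7 fibroblast markers, mostly COL1A1 and THY1, was 2493 to 2534, 644 to 751 and 156 to 196 CPM in the same order. Leukocyte markers summed to at most 4.22 CPM and endothelial markers to at most 1.82 CPM in any library. These shifts in fibroblast and epithelial markers and in mitochondrial share move with the groups compared below, and their part in the results was not tested.

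All 10 regulators rose in both tolerant lines. In CoCl2-tolerant cells 10 of 10 passed the test as higher, in a comparison where 36.1% of all genes were called in either direction and 17.9% were called higher. In low-glucose-tolerant cells 10 of 10 were again called higher, where 69.2% of all genes were called and 34.6% were called higher. In low-glucose-tolerant against CoCl2-tolerant cells 9 of 10 were called higher, where 63.9% were called and 32.0% called higher, and the remaining gene, CHAC1, was not called. No regulator was called lower in any of the 3 comparisons. A gene is called when its p-value from edgeR's quasi-likelihood test, adjusted by the Benjamini-Hochberg method over all 17902 genes, is under 0.05. Both tolerant lines were compared with the same 3 control libraries, so these 2 counts are not independent of each other. The 10 genes were chosen with earlier results of these data known.

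For 9 of the 10 regulators the rise was larger in low-glucose-tolerant than in CoCl2-tolerant cells. Their median log2 fold change was 1.74 in CoCl2-tolerant and 3.73 in low-glucose-tolerant cells over control, and 1.76 between the tolerant lines; the median over all genes tested was 0.01, -0.01 and -0.01. A rise of at least 2-fold was seen for 8 of the 10 in CoCl2-tolerant cells, against 5.17% of all genes. It was seen for all 10 in low-glucose-tolerant cells, against 15.9%, and for 7 between the tolerant lines, against 13.6%. Every CoCl2-tolerant library was above every control library for all 10 regulators, as for 28.3% of all genes. The same held for all 10 in low-glucose-tolerant libraries, against 36.4%. Between the tolerant lines it held for 9, against 31.5%. Summed over the 10 genes, the control libraries held 455 to 479 CPM, the CoCl2-tolerant ones 1069 to 1313 CPM and the low-glucose-tolerant ones 2731 to 3504 CPM. In bulk libraries, more cells with the response and more RNA per cell cannot be told apart.

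**Figure D1:**
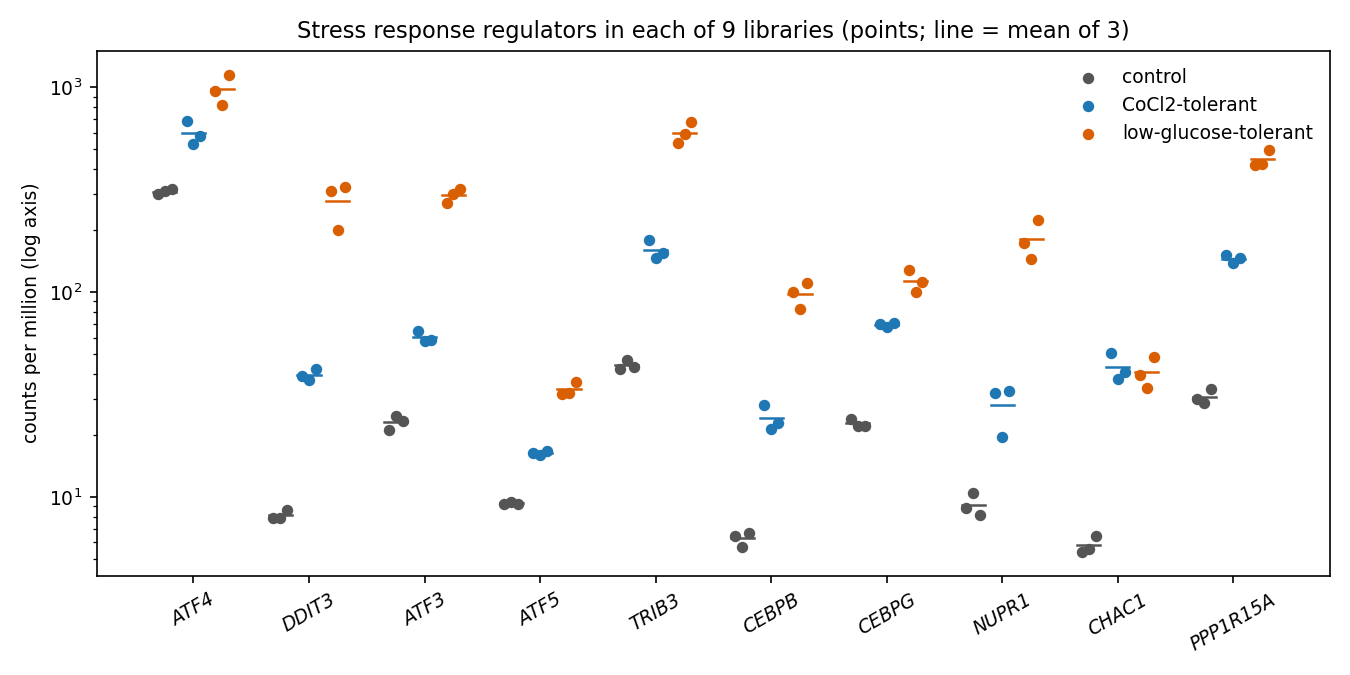
Level of each regulator in each of the 9 libraries, in CPM on a log axis; points are libraries, short lines the mean of 3, and colours the groups. Control points lie lowest for every gene, and the low-glucose-tolerant points lie highest for every gene but CHAC1, where they overlap the CoCl2-tolerant ones.

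ATF4 (ENSG00000128272, GRCh38 chr22:39519695-39522685, plus strand), the factor that carries the response to its target genes, was the most abundant of the 10 in every library. It stood at 299.6, 310.5 and 317.5 CPM in the control libraries, at 683, 528 and 580 CPM in the CoCl2-tolerant libraries, and at 957, 822 and 1153 CPM in the low-glucose-tolerant libraries. The 3 groups did not overlap. ATF4 RNA rose by a log2 fold change of 0.95 ± 0.13 (SE; adjusted p = 9.16e-05) in CoCl2-tolerant and 1.66 ± 0.14 (adjusted p = 8.03e-08) in low-glucose-tolerant cells over control. The tolerant lines differed from each other by 0.71 ± 0.13 (adjusted p = 3.05e-04). Of the 10 genes, only ATF5 changed less than ATF4 in CoCl2-tolerant cells (1.76-fold against 1.93-fold), and none changed less in low-glucose-tolerant cells (3.16-fold).

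DDIT3 (ENSG00000175197, chr12:57516588-57521737, minus strand) encodes CHOP, a C/EBP-like factor induced by ATF4 and linked to death under lasting stress. Its control libraries held 7.90, 7.86 and 8.61 CPM. The CoCl2-tolerant libraries held 38.8, 37.0 and 42.3 CPM, and the low-glucose-tolerant libraries 311, 200.2 and 327 CPM. The groups were far apart, although low-glucose replicate 2 stood at 0.628 of the mean of replicates 1 and 3. DDIT3 rose 4.84-fold in CoCl2-tolerant cells (log2 fold change 2.28 ± 0.17, adjusted p = 2.26e-07) and 34.4-fold in low-glucose-tolerant cells (5.10 ± 0.18, adjusted p = 3.22e-11), where it ranked 23 of the 17902 genes by fold change. It was 7.10-fold higher in low-glucose-tolerant than in CoCl2-tolerant cells (2.83 ± 0.16, adjusted p = 3.24e-09). Of the bases in DDIT3 exons, 39.6% are also exon bases of other genes, mainly MARS1 on the opposite strand, and no source used here gives the strand setting of the counting. MARS1, a methionyl-tRNA synthetase gene, went from 281 CPM in control to 403 and 448 CPM in the tolerant lines.

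The other activating transcription factors followed the same order of groups. ATF3 (ENSG00000162772, chr1:212565334-212620777, plus strand), an early stress-induced factor that can repress or activate, stood at 21.1, 24.9 and 23.4 CPM in control, 64.8, 57.8 and 58.3 CPM in CoCl2-tolerant and 271, 301 and 320.2 CPM in low-glucose-tolerant libraries. It rose by 1.38 ± 0.11 (adjusted p = 5.85e-07) and 3.68 ± 0.12 (adjusted p = 1.42e-11) on the log2 scale, and the lines differed by 2.30 ± 0.11 (adjusted p = 7.75e-10). ATF5 (ENSG00000169136, chr19:49928702-49933935, plus strand), whose mRNA is translated under stress as that of ATF4 is, had the smallest change of the 10 in CoCl2-tolerant cells. Its libraries held 9.24, 9.47 and 9.22 CPM in control, 16.4, 16.05 and 16.8 CPM in CoCl2-tolerant and 31.7, 32.1 and 36.6 CPM in low-glucose-tolerant cells, with no overlap. The log2 fold changes were 0.82 ± 0.11 (adjusted p = 7.23e-05) and 1.85 ± 0.11 (adjusted p = 3.73e-09) over control and 1.03 ± 0.11 (adjusted p = 1.48e-06) between the lines. Other genes share 23.7% of ATF5 exon bases, mainly NUP62 and, for fewer bases, IL4I1, both on the opposite strand. NUP62 stood at 89.2, 97.0 and 64.4 CPM in the 3 groups, and IL4I1 rose with ATF5, from 1.90 to 4.04 and 5.63 CPM. Their part in the ATF5 counts was not tested.

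Of the C/EBP factors, CEBPB, a partner of CHOP and ATF4, rose the more in low-glucose-tolerant cells. CEBPB (ENSG00000172216, chr20:50190734-50192689, plus strand) had 6.47, 5.71 and 6.64 CPM in control, 28.0, 21.5 and 22.9 CPM in CoCl2-tolerant and 100.3, 82.9 and 110.7 CPM in low-glucose-tolerant libraries. Its log2 fold changes over control were 1.94 ± 0.15 (adjusted p = 3.00e-07) and 3.96 ± 0.15 (adjusted p = 6.22e-11), and the lines differed by 2.02 ± 0.14 (adjusted p = 1.87e-08). Its antisense gene CEBPB-AS1 overlaps 11.8% of its exon bases and stood at 0.571, 1.88 and 1.004 CPM in the 3 groups. CEBPG (ENSG00000153879, chr19:33373330-33382686, plus strand), which lacks an activation domain of its own and pairs with ATF4, held 24.1, 22.2 and 22.3 CPM in control, 69.7, 67.8 and 70.5 CPM in CoCl2-tolerant and 128, 100.4 and 112 CPM in low-glucose-tolerant libraries. CEBPG rose by 1.60 ± 0.11 (adjusted p = 1.56e-07) and 2.31 ± 0.11 (adjusted p = 5.64e-10), with 0.71 ± 0.11 (adjusted p = 5.59e-05) between the lines. NUPR1 (ENSG00000176046, chr16:28532708-28539174, minus strand), a small chromatin protein induced by stress, had the largest standard errors of the 10. Its libraries had 8.85, 10.5 and 8.14 CPM in control, 32.2, 19.5 and 32.9 CPM in CoCl2-tolerant and 174, 145.5 and 225 CPM in low-glucose-tolerant cells. The groups still did not overlap, and its log2 fold changes were 1.62 ± 0.20 (adjusted p = 3.52e-05), 4.31 ± 0.22 (adjusted p = 6.99e-10) and 2.69 ± 0.20 (adjusted p = 4.59e-08).

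The feedback genes split into a pair that followed ATF4's order of groups and 1 that did not. TRIB3 (ENSG00000101255, chr20:362835-397559, plus strand), a pseudokinase that binds ATF4 and CHOP and restrains them, stood at 42.0, 46.7 and 43.1 CPM in control, 179, 146 and 156 CPM in CoCl2-tolerant and 534, 588 and 676 CPM in low-glucose-tolerant libraries. It rose by 1.86 ± 0.12 (adjusted p = 7.63e-08) and 3.77 ± 0.13 (adjusted p = 2.62e-11), and differed by 1.90 ± 0.12 (adjusted p = 8.19e-09) between the lines. PPP1R15A (ENSG00000087074, chr19:48872392-48876057, plus strand) encodes GADD34, which brings a phosphatase to eIF2 and ends the response. It held 29.95, 28.7 and 33.8 CPM in control, 151, 138 and 146 CPM in CoCl2-tolerant and 416, 424 and 494 CPM in low-glucose-tolerant libraries. PPP1R15A rose 4.71-fold (2.23 ± 0.11, adjusted p = 9.05e-09) and 14.4-fold (3.85 ± 0.12, adjusted p = 1.13e-11). Between the lines it differed by 1.62 ± 0.11 (adjusted p = 1.71e-08).

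CHAC1 (ENSG00000128965, chr15:40952962-40956519, plus strand), an enzyme that breaks down glutathione and a target of the ATF4 and CHOP branch, rose about equally in both lines. Its libraries held 5.40, 5.59 and 6.45 CPM in control, 50.6, 37.5 and 40.6 CPM in CoCl2-tolerant and 39.4, 34.2 and 48.5 CPM in low-glucose-tolerant cells. The tolerant libraries overlapped. CHAC1 rose 7.37-fold in CoCl2-tolerant cells (2.88 ± 0.16, adjusted p = 2.15e-08), the largest change among the 10 there and rank 30 of all genes tested. In low-glucose-tolerant cells it rose 6.99-fold (2.81 ± 0.16, adjusted p = 2.55e-09). Between the lines the log2 difference was -0.08 ± 0.15 (adjusted p = 0.664), with a 95% interval of -0.39 to 0.24, or 0.763-fold to 1.18-fold. This interval lies below the smallest difference between the lines among the other 9 genes, 0.71 for ATF4 and CEBPG.

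**Figure D2:**
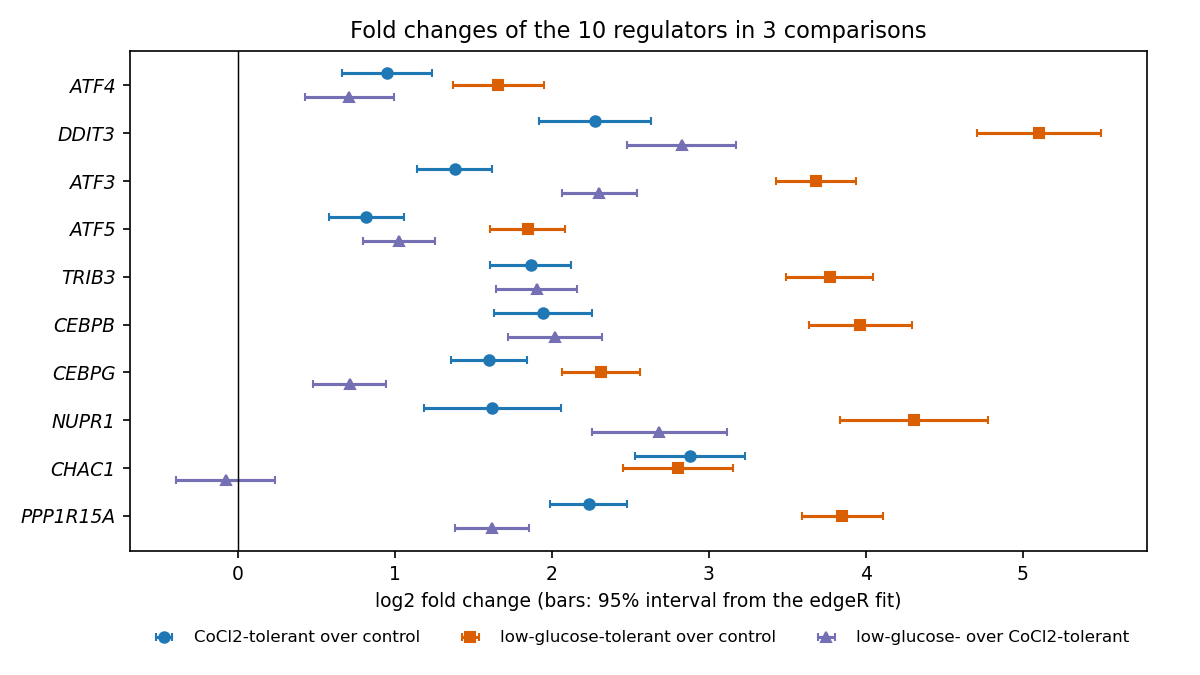
Log2 fold change of each regulator in the 3 comparisons, with bars for the 95% interval from the edgeR fit and a line at 0. CHAC1 is the only gene whose low-glucose over CoCl2 interval crosses 0 (-0.39 to 0.24), and DDIT3 lies farthest right in low-glucose-tolerant cells (5.10).

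The promoters of 4 regulators hold, within the window searched, the letters of a site that ATF4 or a related factor can bind. RefSeq promoter windows (build GRCh38.p14, 250 bases before to 50 after a gene's start) were found for 9 of the 10 genes, all but NUPR1, and were searched on both strands for 4 motifs. The core of the C/EBP-ATF response element, TGATGNAA, was in 3 of the 9: ATF3, CHAC1 and CEBPG. It was in 4.46% of the 27305 genes with a window, and in 3.62% of their 35116 windows. A gene counted if any of its windows held the letters. The 9 genes had 1 to 3 windows each, so their count and the share of all genes are not strictly alike. The cyclic AMP response element TGACGTCA was in PPP1R15A only, and in 2.25% of all genes. The variant TGACGTAA (0.513% of genes) and the endoplasmic reticulum stress response element (0.0916%) were in none of the 9. The stretches of 30 bases below show where the letters stand. Capitals mark the motif, which in CHAC1 reads on the other strand.
ATF3, chr1:212565205-212565234, plus strand: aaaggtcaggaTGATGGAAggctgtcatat
CHAC1, chr15:40953251-40953280, plus strand: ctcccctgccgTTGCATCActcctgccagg
CEBPG, chr19:33374060-33374089, plus strand: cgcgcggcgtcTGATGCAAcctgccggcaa
PPP1R15A, chr19:48872352-48872381, plus strand: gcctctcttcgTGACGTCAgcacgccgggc
The motifs begin 191, 209, 42 and 58 bases before the RefSeq start of each window for ATF3, CHAC1, CEBPG and PPP1R15A. Those starts lie inside the GENCODE gene spans given above, so the CHAC1 and CEBPG stretches themselves fall within the spans. The CHAC1 stretch lies within an exon of another annotated CHAC1 transcript, and the other 3 lie outside annotated exons. A match of letters is a description of these windows and does not show binding. The 3 genes with the response element core rose by 1.38 to 2.88 in CoCl2-tolerant and by 2.31 to 3.68 in low-glucose-tolerant cells on the log2 scale. Members with a window but without the core rose by 0.82 to 2.28 and by 1.66 to 5.10, so the ranges overlapped. Any part of the motif in these rises was not tested.

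Levels were also taken per kilobase of exon, where the length is all exon bases annotated for a gene over its transcripts. This length can exceed that of the RNA present, so ranks between genes are approximate. Among the 10, NUPR1 has the largest length (5.674 kilobases) and DDIT3 the smallest (1.307 kilobases, 39.6% of it shared with other genes). On this scale ATF4 led in all groups, with a mean of 123, 238 and 389 CPM per kilobase (SD 3.59, 31.3 and 66.2, n = 3 each). The order below it changed. In control, TRIB3 (12.8), PPP1R15A (9.96) and DDIT3 (6.22 CPM per kilobase) came next, and NUPR1 (1.61) was last; DDIT3 overlapped ATF3 (5.73), which overlapped CEBPG (5.18), and ATF5 (3.15) overlapped both CEBPB (3.21) and CHAC1 (2.82). In CoCl2-tolerant cells PPP1R15A (46.9) and TRIB3 (46.6) overlapped in second place, DDIT3 (30.1) followed, and CHAC1 (20.8) had passed CEBPG (15.7), ATF3 (14.9), CEBPB (12.3) and ATF5 (5.56), with NUPR1 (4.97) last. There ATF3 overlapped both CEBPG and CEBPB, and ATF5 overlapped NUPR1. In low-glucose-tolerant cells DDIT3 (214) stood next to ATF4 and overlapped TRIB3 (175), which overlapped PPP1R15A (144). ATF3 (73.6), CEBPB (50.1), NUPR1 (32.0), CEBPG (25.7), CHAC1 (19.8) and ATF5 (11.3) followed, and CEBPG overlapped both NUPR1 and CHAC1.

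**Figure D3:**
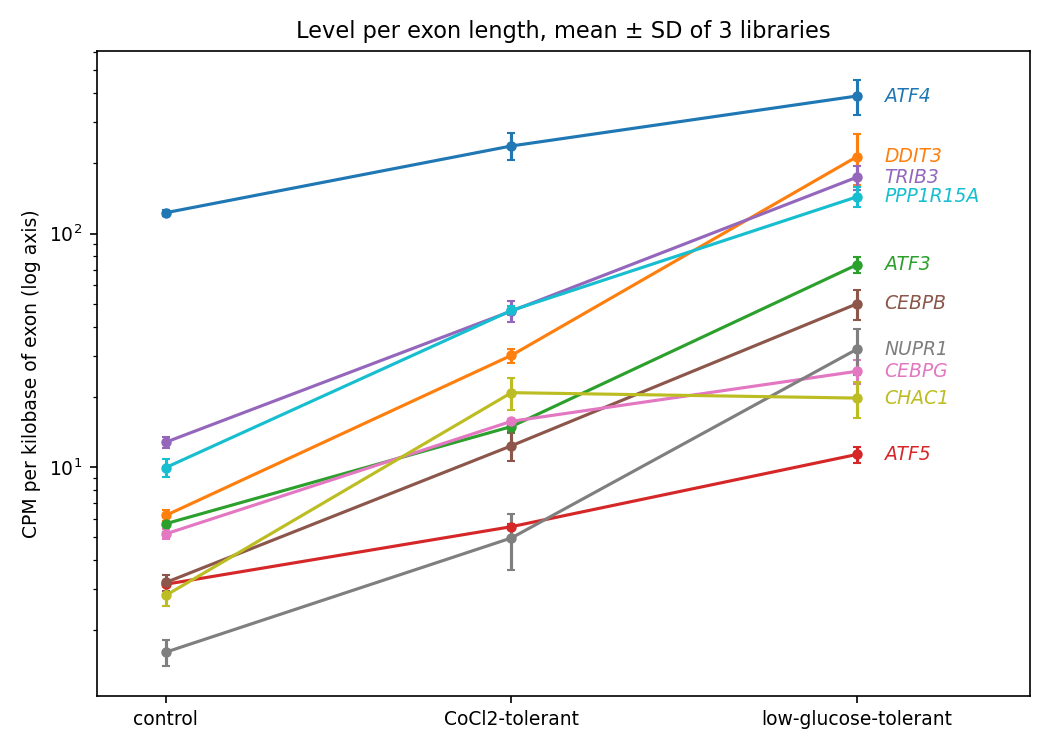
Mean level per kilobase of exon in each group, on a log axis, with the SD of 3 libraries; lines join the 3 groups of a gene only to guide the eye. DDIT3 climbs from 6.22 to 214 CPM per kilobase to stand next to ATF4, while CHAC1 stays near 20 between the tolerant lines.

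Set against ATF4 within the same library, the other members took different courses. DDIT3 per kilobase was 0.0487 to 0.0522 of ATF4 among control libraries, was 0.109 to 0.140 with CoCl2 tolerance and reached 0.468 to 0.625 with low-glucose tolerance. TRIB3 went from 0.0995 to 0.110 through 0.192 to 0.202 up to 0.408 to 0.524, and PPP1R15A from 0.0752 to 0.0864 through 0.180 to 0.213 up to 0.349 to 0.419. The ratio of CHAC1 was highest in CoCl2-tolerant libraries, at 0.0855 to 0.0905, against 0.0220 to 0.0248 in control and 0.0503 to 0.0513 in low-glucose-tolerant libraries, with no overlap between groups. ATF5 kept close to ATF4, at 0.0247 to 0.0262, 0.0205 to 0.0259 and 0.0270 to 0.0333, with control and CoCl2-tolerant ranges overlapping. The CEBPG ratio was higher in both tolerant lines (0.0582 to 0.0732 and 0.0554 to 0.0763) than in control (0.0399 to 0.0458), and the tolerant ranges overlapped. These ratios are descriptions and were not tested.

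Within the low-glucose-tolerant group the libraries did not order alike for all members. Replicate 2 was the lowest for ATF4, DDIT3, CEBPB, CEBPG, NUPR1 and CHAC1, and replicate 1 for ATF3, ATF5, TRIB3 and PPP1R15A. Replicate 3 was the highest for all but CEBPG. Across the 9 libraries the log2 levels of the members had a Pearson r from 0.761, for NUPR1 and CHAC1, to 0.997, for ATF5 and TRIB3. The 8 lowest of these values were all pairs with CHAC1, from 0.761 to 0.894; its pair with CEBPG was higher, at 0.937. The 9 points fall into 3 groups, so these values mainly describe differences between groups.

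The kinases that start the response did not rise as a group. Of 14 tested genes for eIF2 kinases and their regulators and activators, 1 was called higher and 3 lower in CoCl2-tolerant cells (median log2 fold change -0.10). In low-glucose-tolerant cells 6 were called higher and 4 lower (median 0.12). Over all genes, 36.1% were called in either direction and 17.9% called higher in CoCl2-tolerant cells, and 69.2% and 34.6% in low-glucose-tolerant cells. The share of the kinase list called in either direction was near or below that of all genes. The same shares over all genes are the background for every list count over control below. EIF2AK3 (PERK), the kinase of the endoplasmic reticulum, stood at 28.4 ± 1.52 CPM (SD, n = 3) in control and 23.3 ± 1.01 in CoCl2-tolerant cells (log2 fold change -0.29 ± 0.13, adjusted p = 0.100), and fell to 20.4 ± 3.67 CPM in low-glucose-tolerant cells (-0.48 ± 0.13, adjusted p = 0.00457). EIF2AK4 (GCN2), the amino acid sensor, fell from 199.7 ± 5.05 CPM to 145 ± 5.11 and 135 ± 15.0 CPM (-0.46 ± 0.10, adjusted p = 0.00349, and -0.57 ± 0.10, adjusted p = 2.16e-04). Its activator GCN1 fell likewise, from 432 ± 18.7 to 296 ± 40.8 and 280 ± 64.0 CPM (adjusted p = 0.0106 and 0.00171), although the former was not called without CoCl2-tolerant replicate 3 (adjusted p = 0.0568). EIF2AK1 (HRI), the heme and mitochondrial stress kinase, was at 175 ± 10.2 and 166 ± 12.0 CPM and rose to 231 ± 11.7 CPM in low-glucose-tolerant cells (0.40 ± 0.10, adjusted p = 0.00284). EIF2AK2 (PKR), the double-stranded RNA sensor, was at 90.1, 64.6 and 90.9 CPM; it was called lower in CoCl2-tolerant cells (-0.48 ± 0.16, adjusted p = 0.0326), but not without any 1 of control replicates 1, 2 and 3 or CoCl2-tolerant replicates 1 and 3 (adjusted p up to 0.125). DNAJC3, an inhibitor of these kinases, rose in low-glucose-tolerant cells from 32.3 ± 0.707 to 89.4 ± 9.15 CPM (1.47 ± 0.12), and HSPB8, a small heat shock protein, rose in both lines (1.27 ± 0.12 and 0.96 ± 0.12).

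Of 17 genes for eIF2, its exchange factor eIF2B and the phosphatase, 4 were called higher and none lower in CoCl2-tolerant cells (median 0.15), and 10 higher and 1 lower in low-glucose-tolerant cells (median 0.34). The largest change was that of EIF2D, an alternative initiation factor, which rose from 51.4 ± 1.37 to 132 ± 8.95 CPM in low-glucose-tolerant cells (1.36 ± 0.10, adjusted p = 4.14e-08). PPP1R15B (CReP), the constitutive counterpart of PPP1R15A, was not called in any comparison of the main fit, at 93.9 ± 3.55, 87.9 ± 4.56 and 97.3 ± 12.4 CPM. The relatives TRIB1, TRIB2 and CHAC2 of the feedback genes were not called in CoCl2-tolerant cells and fell in low-glucose-tolerant cells. TRIB1 fell from 52.0 ± 2.09 to 13.8 ± 0.907 CPM (-1.91 ± 0.11, adjusted p = 2.34e-09), TRIB2 from 4.11 to 1.90 CPM and CHAC2 from 5.94 to 3.48 CPM.

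Other genes listed with the bZIP class, the DNA-binding family of ATF4, moved in both directions. The list includes CEBPZ, which shares the C/EBP name but not that class. Of 42 tested, 11 were called higher and 10 lower in CoCl2-tolerant cells (median 0.04), and 23 higher and 10 lower in low-glucose-tolerant cells (median 0.59). XBP1 and ATF6 carry the other arms of the endoplasmic reticulum stress response. XBP1 went from 36.9 ± 0.445 to 46.9 ± 0.904 CPM in CoCl2-tolerant cells (0.35 ± 0.10, adjusted p = 0.0124), a call that ended without any 1 control replicate or CoCl2-tolerant replicate 3 (adjusted p up to 0.0620). In low-glucose-tolerant cells XBP1 rose to 243 ± 15.7 CPM (2.72 ± 0.10, adjusted p = 4.38e-11). ATF6 was at 95.5 ± 4.93 and 90.6 ± 4.28 CPM in control and CoCl2-tolerant cells and rose to 164 ± 20.4 CPM in low-glucose-tolerant cells (0.78 ± 0.11, adjusted p = 2.22e-05). MAFF, a small Maf factor, rose from 4.18 ± 0.125 to 57.1 ± 4.78 CPM there (3.77 ± 0.13), and FOS, an immediate early gene, fell from 40.9 ± 1.60 to 2.10 ± 0.083 CPM (-4.28 ± 0.13). In CoCl2-tolerant cells FOSL1 (1.29 ± 0.11) and NFIL3 (1.24 ± 0.12) rose and CREB3L1 (-1.84 ± 0.24) and CREB3L2 (-1.23 ± 0.18) fell.

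Genes listed as known ATF4 targets rose in most cases, but whether ATF4 raised them was not tested. The same holds for the listed signalling targets and for the CHOP effectors and death genes below. Of 25 amino acid supply genes, 16 were called higher and 3 lower in CoCl2-tolerant cells (median 0.82), and 23 higher and none lower in low-glucose-tolerant cells (median 1.58). SLC3A2, the shared chain of several amino acid transporters, rose from 51.1 ± 3.02 to 210.0 ± 34.3 and 497 ± 77.1 CPM (2.04 ± 0.14 and 3.28 ± 0.15). SLC7A11, its cystine-importing partner, rose by 2.54 ± 0.18 and 2.68 ± 0.18 to 105 and 116 CPM and, as CHAC1, was not called between the lines (0.14 ± 0.17, adjusted p = 0.497). GPT2, an alanine aminotransferase, was alike in this (1.71 ± 0.11 and 1.69 ± 0.11). ASS1, which makes argininosuccinate, went in opposite directions, falling from 8.10 ± 0.221 to 2.05 ± 0.169 CPM in CoCl2-tolerant cells (-1.98 ± 0.14) and rising to 57.2 ± 6.50 CPM in low-glucose-tolerant cells (2.82 ± 0.12). The lines differed in ASS1 by 4.80 ± 0.14 (adjusted p = 2.19e-11). Of 14 tRNA charging and export genes, 12 were called higher and none lower in CoCl2-tolerant cells (median 0.52), and 10 higher and none lower in low-glucose-tolerant cells (median 1.19). GARS1 rose from 243 ± 12.1 to 512 ± 33.5 and 1025 ± 70.5 CPM, and WARS1 from 156 ± 3.12 to 293 ± 9.51 and 906 ± 63.2 CPM.

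Of 19 signalling and secreted targets tested, 10 were called higher and none lower in CoCl2-tolerant cells (median 0.87), and 13 higher and 3 lower in low-glucose-tolerant cells (median 1.62). GDF15, a secreted stress cytokine, rose from 107 ± 6.25 to 354 ± 10.9 and 898 ± 107 CPM, and HERPUD1, a membrane protein of the endoplasmic reticulum, rose from 37.4 ± 0.941 to 71.2 ± 2.93 and 448 ± 45.1 CPM. STC2, a secreted glycoprotein, rose far more in CoCl2-tolerant (839 ± 63.9 CPM) than in low-glucose-tolerant cells (237 ± 15.1 CPM) from 182 ± 2.71 CPM, a difference between the lines of -1.83 ± 0.10 (adjusted p = 3.02e-09). NDRG1 rose by 2.24 ± 0.11 and 1.73 ± 0.11. TXNIP, whose transcription depends on glucose-sensing factors, rose from 63.8 ± 1.57 to 299 ± 11.2 CPM in CoCl2-tolerant cells (2.23 ± 0.10) and fell to 3.68 ± 0.347 CPM in low-glucose-tolerant cells (-4.11 ± 0.12).

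Of 12 CHOP effectors and death genes linked to the response, 8 were called higher and 1 lower in CoCl2-tolerant cells (median 0.83), and 9 higher and 1 lower in low-glucose-tolerant cells (median 1.35). BBC3 (PUMA), which promotes apoptosis, rose from 10.5 ± 0.041 to 31.9 ± 3.61 and 64.8 ± 9.04 CPM (1.60 ± 0.13 and 2.62 ± 0.13), and the cell cycle inhibitor CDKN1A from 184 ± 2.81 to 491 ± 21.4 and 877 ± 77.9 CPM. The gene called lower in both lines was BCL2, a survival gene that CHOP is known to repress, at 43.9 ± 1.94, 23.3 ± 0.484 and 13.4 ± 2.16 CPM; it was named after its values were seen. ERO1A, an oxidase of the endoplasmic reticulum that CHOP is known to induce, did not follow DDIT3. It rose from 76.1 ± 3.11 to 165 ± 27.3 CPM in CoCl2-tolerant cells (1.12 ± 0.14, adjusted p = 3.75e-05) and stood at 64.2 ± 10.5 CPM in low-glucose-tolerant cells (-0.25 ± 0.14, adjusted p = 0.134), where DDIT3 was highest. The lines differed in ERO1A by -1.37 ± 0.14 (adjusted p = 1.37e-06).

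Of 12 stress genes listed as linked to ATF5, most of them mitochondrial, 3 were called higher and none lower in CoCl2-tolerant cells (median 0.25). In low-glucose-tolerant cells 6 were called higher and 3 lower (median 0.15). The mitochondrial protease LONP1 rose from 219 ± 1.48 to 344 ± 51.5 and 432 ± 57.4 CPM, and the mitochondrial cochaperone DNAJA3 rose from 49.6 ± 1.57 to 194 ± 16.8 CPM in low-glucose-tolerant cells (adjusted p = 2.89e-09). In CoCl2-tolerant cells DNAJA3 was at 60.3 ± 7.10 CPM (adjusted p = 0.0643). HSPA14, from the same list, was called lower in low-glucose-tolerant cells. Its log2 fold change over control ran from -1.21 to -0.70 across the main fit and the alternatives described below. Of 13 genes for degradation, modification and partners of ATF4, CHOP and TRIB3, 3 were called higher and 1 lower in CoCl2-tolerant cells (median -0.13), and 3 in each direction in low-glucose-tolerant cells (median -0.22). TRIM21, a ubiquitin ligase, rose in both (0.60 ± 0.12 and 1.03 ± 0.12). Among the list genes named, exon bases are shared with other genes for HSPA14 (17.4% of its bases), EIF2AK3 (15.1%), WARS1 (10.6%), EIF2AK1 (9.59%) and SLC7A11 (8.97%). The same holds for ERO1A (7.70%), CDKN1A (4.79%), EIF2AK2 (4.05%), BBC3 (2.52%), GARS1 (2.38%) and LONP1 (0.846%).

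The same lists were counted in low-glucose-tolerant over CoCl2-tolerant cells, where 63.9% of all genes were called and 32.0% called higher. Of 25 amino acid supply genes 20 were called higher and 2 lower (median 0.51). Of 14 tRNA charging genes 9 were higher and 2 lower (median 0.53). Of 12 CHOP effectors and death genes linked to the response 8 were higher and 2 lower (median 0.52). Of 19 signalling targets 10 were higher and 6 lower (median 0.50), and of 42 genes listed with the bZIP class 25 higher and 6 lower (median 0.45). The next 4 lists had a share called near or below that of all genes. Of 14 eIF2 kinases and regulators 6 were higher and 3 lower (median 0.25), and of 17 genes of the eIF2 machinery 5 higher and none lower (median 0.12). Of 12 ATF5-linked genes 4 were higher and 3 lower (median 0.04), and of 13 turnover genes 4 higher and 2 lower (median 0.01). The 4 relatives of the feedback genes gave none higher and 3 lower (median -0.74).

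Over the 9 libraries, and among 11063 genes with at least 5 CPM in a group, the genes whose log2 levels (with 0.5 CPM added) followed ATF4 most closely were FDXR, PHLDA3, GNPTG, MAN1B1 and KTI12, with Pearson r of 0.998, 0.997, 0.996, 0.995 and 0.995. FDXR went from 57.6 ± 3.93 to 126 ± 18.9 and 217 ± 40.1 CPM, and PHLDA3 from 56.1 ± 2.69 to 147 ± 32.4 and 267 ± 59.0 CPM. Those most like DDIT3 were PITPNC1, DUSP6, AK5, ITPKA and ATF5, with r from 0.997 to 0.996. DUSP6 rose from 4.47 ± 0.342 to 10.6 ± 0.451 and 33.9 ± 4.35 CPM, and ITPKA from 4.76 ± 0.288 to 15.9 ± 2.47 and 76.6 ± 12.4 CPM. ATF5 was the only other regulator among these 10 genes.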

How the data were processed

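Gene counts of 9 mRNA libraries were analysed, 3 per group, with groups taken from the labels. Per the submitters' processing notes, the authors' pipeline included featureCounts and DESeq2 with genome build GRCh38; the deposited values are raw counts per Ensembl gene. For strandedness, alignment and annotation release, details were not given in the sources used here. Of 36018 gene identifiers, 35938 were paired with a symbol. Exon lengths and positions came from GENCODE 29.

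Counts were tested with edgeR 4.0.16 in R 4.3.3 (quasi-likelihood test, TMM normalization, genes filtered by group with filterByExpr, 1 mean per group, all 9 libraries in 1 fit). Values were adjusted by Benjamini-Hochberg over 17902 genes and called under 0.05. CPM uses TMM-scaled library sizes, in which 3 counts equal 0.0883 to 0.121 CPM. The common biological coefficient of variation was 12.6%. Simulated data (17442 genes) had the same spread for every gene and group, and 200 well-counted genes changed in each tolerant group. On them the test recovered 52.2% of 1.5-fold and 100% of 2-fold changes for CoCl2-tolerant against control. For low-glucose-tolerant against control it recovered 50.7% and 97.0%. The real libraries had many more called genes and a spread that differed between groups, so these rates may not carry over. No pair of libraries agreed within counting noise.

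Besides the 10 members, text names per list up to 4 called genes with the largest change and at least 1 CPM in the higher group, the eIF2 kinases, XBP1 and ATF6, and the 5 genes most like ATF4 and DDIT3; PPP1R15B and BCL2 were named outside this rule, after their values were seen. The members and lists were chosen with earlier results of these data known. Listed genes CEBPE, NUPR2, SLC7A3 and FGF21 were not analysed here. Alternatives were DESeq2 1.42.0, other scalings and filters, each comparison's groups alone, a replicate block, and leaving out each library. The replicate numbers were not taken to pair libraries.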

Additional observations from a re-analysis of the deposited data

How the results depend on the processing

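Under 17 alternative settings, 9 of which leave out 1 library each, the number of regulators called in each direction and every regulator's call stayed as reported, as did the direction of every called change. In CoCl2-tolerant cells the log2 fold change of ATF4 ranged from 0.85 to 1.03 with adjusted p up to 0.00106, and that of ATF5 from 0.80 to 0.84 with adjusted p up to 0.00108. The CHAC1 difference between the tolerant lines ranged from -0.21 to 0.06 with adjusted p from 0.207 to 0.856, so its sign was not fixed. Counts over all genes stayed within 1.5 times. Same-numbered libraries had correlations of their deviations of -0.260 to 0.124, and differently numbered ones of -0.242 to 0.205, so the numbers give no pairing; with the replicate block, 10, 10 and 9 regulators were called higher and none lower, and genes called higher were 2976, 6011 and 5535. Of 1020 list counts under alternatives, 59 moved by over 1.5 times. Amino acid supply genes called lower in CoCl2-tolerant cells ranged from 1 to 3, and those called higher between the lines from 13 to 21; kinase list genes called higher in CoCl2-tolerant cells ranged from 1 to 3 and those called lower from 1 to 4; tRNA charging genes called lower between the lines ranged from 1 to 3. The eIF2 machinery genes called higher in CoCl2-tolerant cells ranged from 1 to 7, and turnover genes called lower from 1 to 5 and, in low-glucose-tolerant cells, from 1 to 7. For list genes followed under the alternatives, the call was unchanged in 2336 cases, lost in 41 and gained in 6. PPP1R15B was called higher in low-glucose-tolerant than in CoCl2-tolerant cells under an alternative setting (lowest adjusted p = 0.0432). ERO1A in low-glucose-tolerant cells was called lower under a filter of 5 CPM in 3 libraries (adjusted p = 0.0419). EIF2AK3 in CoCl2-tolerant cells was called lower with only the groups compared and without low-glucose-tolerant replicate 2 or 3 (adjusted p from 0.0138). The causes were not tested. Depth limits none of the regulators, each of which had at least 166 counts in every library.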
